A study of Mus musculus with 8 samples.

Results

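The TOX genes and the pair Tcf7 and Lef1 encode DNA-binding proteins built around an HMG box, a fold that bends the DNA it binds. The 6 genes Tox, Tox2, Tox3, Tox4, Tcf7 and Lef1 were looked up by symbol among the 55487 genes of the deposited expression table, and all 6 were found. They were chosen by gene family and with their measured values in these libraries in view, so their levels and differences between groups are given as a description, with no test. Of the 6, 5 reached 1 FPKM (mapped fragments scaled to library size and transcript length) in at least 2 of the 8 libraries, and Tox3 did not. FPKM take transcript length into account, so levels can also be set side by side between genes.

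The study set regulatory T cells (Tregs) of mice that lack SRC-3, a transcriptional coactivator encoded by Ncoa3, beside Tregs of control mice, all from spleens of animals without tumors. KO YFP+ are the YFP+ sorted Tregs of SRC-3 KO mice, whose background mixes C57BL/6 and 129SvEv (libraries 84 and 85). KO YFP- are the YFP- Tregs with the same genotype, background and library numbers (84 and 85). WT YFP+ are YFP+ sorted Tregs of the genotype WT Control on C57BL/6 (libraries 23 and 24). SRC-3ff, named so in its titles, are Tregs of the genotype WT Control 2 on 129SvEv, with no YFP sort in their label (libraries 68 and 72). Where 2 values are given for a group, they follow this order of library numbers. The labels do not give ages, what YFP marks, what drives the deletion or which part of Ncoa3 is deleted, and they do not say whether a number stands for 1 animal. Strain differs between the knockout and both controls, so strain and genotype cannot be told apart in those comparisons. SRC-3ff differs from each YFP+ group in the sort as well as the strain.

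TCF-1 (from Tcf7) and LEF-1 (from Lef1) read a short DNA sequence, recruit either beta-catenin or corepressors, and are needed for early T cell development. Both are kept in naive, memory and stem-like T cells and fall as T cells become effectors, and in Tregs both are known to bear on suppressive function. TOX proteins bind DNA more by its shape than by its sequence. TOX is needed for CD4 T cells to form in the thymus and sustains exhausted CD8 T cells, and TOX2 takes part in follicular helper differentiation.

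Ncoa3 measured 10.9 and 10.2 FPKM in KO YFP+, 32.1 and 32.2 in KO YFP-, 46.3 and 42.7 in WT YFP+ and 49.7 and 35.4 in SRC-3ff. It was lowest in both KO YFP+ libraries. KO YFP- lay between KO YFP+ and both controls without overlap, its mean 0.72 times that of WT YFP+ and 0.75 times that of SRC-3ff. Gene-level FPKM do not show whether part of the gene is missing, so the name KO YFP- follows its label only. Foxp3, the factor that defines Tregs, measured 21.02 and 22.9 FPKM in KO YFP+, 161 and 113 in KO YFP-, 31.0 and 19.9 in WT YFP+ and 205 and 151 in SRC-3ff, so it was lower in both YFP+ groups than in both others. The T cell genes Cd3e and Cd4 and the Treg genes Il2ra and Ikzf2 were present in all 8 libraries. Not every Treg gene followed Foxp3. For Il2ra, KO YFP+ stood above KO YFP-, with 95.7 and 92.4 FPKM beside 43.5 and 42.8. Its level was 112.5 and 112.7 FPKM for WT YFP+, and for SRC-3ff it was 106.9 and 83.1. Ikzf4 had the same order between the KO sorts (27.4 and 23.2 FPKM against 11.8 and 10.7). Of 14 T cell and Treg identity genes, limma called 2 higher and 1 lower in KO YFP+ against KO YFP- (adjusted p under 0.05). Over all tested genes the shares were 1.44% higher and 3.46% lower. In KO YFP+ against WT YFP+ limma called 0 of the 14, beside 0.304% and 0.453%. Against SRC-3ff it called 1 higher and 1 lower in KO YFP+, beside 4.15% and 6.09%. The same counts in WT YFP+ against SRC-3ff stood beside 3.73% and 5.49%. FPKM summed to between 384107 and 416393 per library and 12573 to 13251 genes reached 1 FPKM. The depth of each library is unknown. All 13 mitochondrially encoded protein genes were listed at 0 in every library, so a 0 can also stand for an estimate that was not made.

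Summed markers of NK, gamma delta, plasma, B and myeloid cells were lower in both YFP+ groups than in KO YFP- and SRC-3ff. The CD8, erythroid or stromal and thymocyte sums did not share this order. The 12 NK cell markers summed to 49.3 to 67.4 FPKM in KO YFP+, 268 to 437 in KO YFP-, 36.5 to 43.8 in WT YFP+ and 141 to 205 in SRC-3ff. The 5 measured gamma delta and NKT cell markers summed to 2.34 to 2.62 FPKM in KO YFP+, 59.4 to 87.1 in KO YFP-, 2.24 to 4.39 in WT YFP+ and 70.4 to 166 in SRC-3ff. The 8 plasma cell markers summed to 90.9 to 106 FPKM in KO YFP+, 359 to 507 in KO YFP-, 86.5 to 129 in WT YFP+ and 383 to 991 in SRC-3ff. The 12 B cell markers summed to 23.5 to 23.8 FPKM in KO YFP+, 68.0 to 71.0 in KO YFP-, 14.7 to 15.9 in WT YFP+ and 60.8 to 114 in SRC-3ff, and 12 myeloid and dendritic cell markers to at most 1.21 FPKM in KO YFP+, 5.71 in KO YFP-, 0.645 in WT YFP+ and 13.2 in SRC-3ff. The 2 CD8 T cell markers summed to 7.86 to 8.15 FPKM in KO YFP+, 5.11 to 5.72 in KO YFP-, 8.86 to 12.4 in WT YFP+ and 4.16 to 4.20 in SRC-3ff. The 6 erythroid and stromal markers summed to 20.4 to 25.1 FPKM in KO YFP+, 14.8 to 17.2 in KO YFP-, 25.9 to 28.2 in WT YFP+ and 22.4 to 28.2 in SRC-3ff, and the sums of 5 thymocyte markers in KO YFP+ overlapped those of every other group. Between the YFP+ groups, the NK and B cell sums were higher and the CD8 and erythroid or stromal sums lower in KO YFP+, all without overlap. In each of the NK and B cell lists, 2 of 12 markers were higher in each KO YFP+ library than in each WT YFP+ library and 1 was lower. Cd79b, a B cell receptor subunit, made up most of the B cell sum of both YFP+ groups, at 21.9 and 21.2 FPKM in KO YFP+, against 13.1 and 13.7 in WT YFP+, and Nkg7, a gene of cytotoxic granules, most of their NK cell sum, at 56.2 and 39.2 FPKM in KO YFP+, against 33.0 and 26.3 in WT YFP+. Ncr1, a defining marker of NK cells, was listed at 0 in all 4 libraries of KO YFP+ and WT YFP+. The part of these cells in the differences of KO YFP+ or WT YFP+ from the other groups was not tested. In such bulk samples, fewer cells of a type and less RNA per cell cannot be told apart.

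Across the 8 libraries, Tcf7 was the most abundant of the 6 genes, with its mean at rank 237 of 55487 genes. Lef1 followed at rank 815, then Tox4 at 3541 and Tox at 3860. Tox2 stood at 11072 and Tox3 at 26262. The clearest separation of groups among the 6 was in Tox2, which was close to 0 in KO YFP+ and above 1 FPKM in all 6 other libraries. Lef1 separated the libraries by the YFP+ label, with both YFP+ groups above KO YFP- and SRC-3ff. Tox, Tcf7 and Tox4 varied less between groups.

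**Figure D1:**
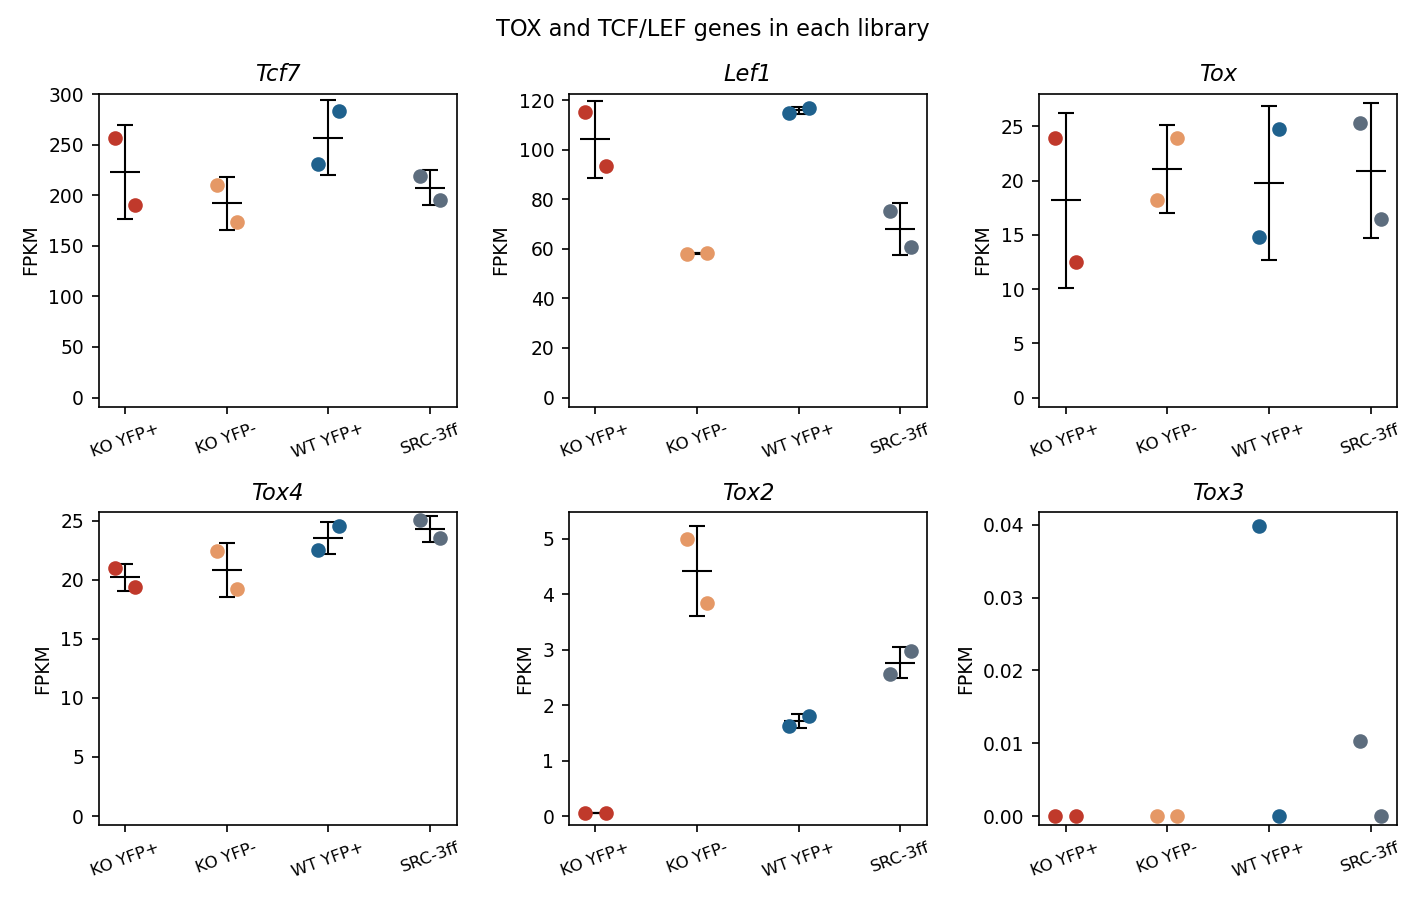
FPKM of the 6 genes in each of the 8 libraries (points), with the group mean and SD as bars for all but Tox3, whose values are mostly 0. Each panel has its own FPKM axis starting near 0. Tox2 lies at 0.0530 and 0.0485 FPKM in KO YFP+ and above 1 FPKM elsewhere, and Lef1 is higher in KO YFP+ and WT YFP+ than in KO YFP- and SRC-3ff.

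Tcf7 (ENSMUSG00000000782, chr11:52252371-52283014, minus strand, GRCm38 with GENCODE M21) encodes TCF-1. It measured 256 and 190 FPKM in KO YFP+, 210 and 174 in KO YFP-, 231 and 283 in WT YFP+ and 220 and 195 in SRC-3ff. KO YFP+ overlapped every other group, and WT YFP+ lay above KO YFP- and SRC-3ff without overlap. The group means (± SD, n = 2 each) were 223 ± 46.5 FPKM in KO YFP+, 192 ± 26.0 in KO YFP-, 257 ± 37.2 in WT YFP+ and 207 ± 17.2 in SRC-3ff. In order of level the groups ran WT YFP+, KO YFP+, SRC-3ff, KO YFP-, and no neighbours in that order differed beyond their SDs. The log2 difference of KO YFP+ was 0.21 ± 0.18 from KO YFP-, -0.21 ± 0.18 from WT YFP+ and 0.09 ± 0.18 from SRC-3ff, with limma's standard error. Leaving out KO YFP+ 84 or 85 moved the difference from KO YFP- between -0.01 and 0.42 and that from WT YFP+ between -0.42 and 0.00, so no direction is given for Tcf7 in KO YFP+. WT YFP+ differed from SRC-3ff by 0.30 ± 0.18, and 0.16 to 0.45 with 1 library left out.

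Lef1 (ENSMUSG00000027985, chr3:131110471-131224356, plus strand) encodes LEF-1, the closest relative of TCF-1 in T cells. It measured 115 and 93.2 FPKM in KO YFP+, 58.0 and 58.2 in KO YFP-, 115 and 117 in WT YFP+ and 75.4 and 60.7 in SRC-3ff. Each of the 4 YFP+ libraries lay above each of the 4 others, and the 2 YFP+ groups overlapped. The means (± SD, n = 2 each) were 104 ± 15.4 FPKM in KO YFP+, 58.1 ± 0.165 in KO YFP-, 116 ± 1.46 in WT YFP+ and 68.0 ± 10.4 in SRC-3ff. In order of level the groups ran WT YFP+, KO YFP+, SRC-3ff, KO YFP-. The neighbours WT YFP+ and KO YFP+, and SRC-3ff and KO YFP-, did not differ beyond their SDs. KO YFP+ was 1.79 times KO YFP- and 1.53 times SRC-3ff in mean FPKM, and WT YFP+ was 1.70 times SRC-3ff. On the log2 scale KO YFP+ differed by 0.82 ± 0.14 from KO YFP-, by 0.61 ± 0.14 from SRC-3ff and by -0.16 ± 0.14 from WT YFP+. WT YFP+ differed from SRC-3ff by 0.77 ± 0.14. With 1 library left out at a time, the difference of KO YFP+ from KO YFP- stayed between 0.67 and 0.97 and that from WT YFP+ between -0.31 and -0.01.

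A second gene lies across the start of Lef1. Lef1os1 (ENSMUSG00000106086, chr3:131109026-131112090) is an antisense gene whose body shares 1620 bases with Lef1, of which 1208 are exonic in both. The library kit does not mark strand, so reads of Lef1 and Lef1os1 within these bases cannot be told apart. Lef1os1 measured 31.6 and 15.3 FPKM in KO YFP+, 11.7 and 11.04 in KO YFP-, 59.3 and 40.7 in WT YFP+ and 21.8 and 7.95 in SRC-3ff. KO YFP+ lay above KO YFP- and overlapped SRC-3ff, and WT YFP+ lay above all other groups. KO YFP+ minus WT YFP+ was -1.12 ± 0.48 on the log2 scale, without overlap, whereas Lef1 overlapped there. Lef1os1 was singled out after its values were seen.

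Tox2 (ENSMUSG00000074607, chr2:163203125-163324170, plus strand) measured 0.0530 and 0.0485 FPKM in KO YFP+, 4.99 and 3.84 in KO YFP-, 1.63 and 1.80 in WT YFP+ and 2.57 and 2.97 in SRC-3ff. No 2 groups overlapped, and the order of level was KO YFP-, SRC-3ff, WT YFP+, KO YFP+. The means (± SD, n = 2 each) were 0.0507 ± 0.00324 FPKM in KO YFP+, 4.42 ± 0.809 in KO YFP-, 1.72 ± 0.123 in WT YFP+ and 2.77 ± 0.286 in SRC-3ff, and every neighbouring pair in that order differed by more than its SDs. The mean of KO YFP- was 87.0 times, that of SRC-3ff 54.6 times and that of WT YFP+ 33.8 times the KO YFP+ mean. The KO YFP+ level is so low that these ratios depend on a few hundredths of an FPKM and have no counting error attached. On the log2(FPKM + 1) scale, which understates differences of low genes, KO YFP+ differed by -2.36 ± 0.18 from KO YFP-, by -1.37 ± 0.18 from WT YFP+ and by -1.84 ± 0.18 from SRC-3ff. WT YFP+ differed from SRC-3ff by -0.47 ± 0.18. Tox2 passed the filter on low values through the groups other than KO YFP+. With 1 library left out at a time, the difference of KO YFP+ from WT YFP+ stayed between -1.42 and -1.32. Adding 0.1 in place of 1 FPKM before taking logs gave -3.59.

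Between KO YFP+ and WT YFP+, the summed gamma delta and plasma cell markers overlapped. The NK and B cell sums were higher in KO YFP+, and the CD8 and erythroid or stromal sums were lower in KO YFP+. Nkg7 and Cd79b, named above, made up most of the NK and B cell sums. Cd8b1 made up most of the CD8 sum, at 8.09 and 7.57 FPKM in KO YFP+, against 8.67 and 12.2 in WT YFP+. Pecam1 made up most of the erythroid or stromal sum, at 23.9 and 20.03 FPKM in KO YFP+, against 24.52 and 26.98 in WT YFP+. The higher Tox2 of KO YFP- and SRC-3ff stood beside higher sums of NK, gamma delta, plasma and B cell markers, and also beside higher Foxp3. The part of these cells in the Tox2 difference was not tested.

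**Figure D2:**
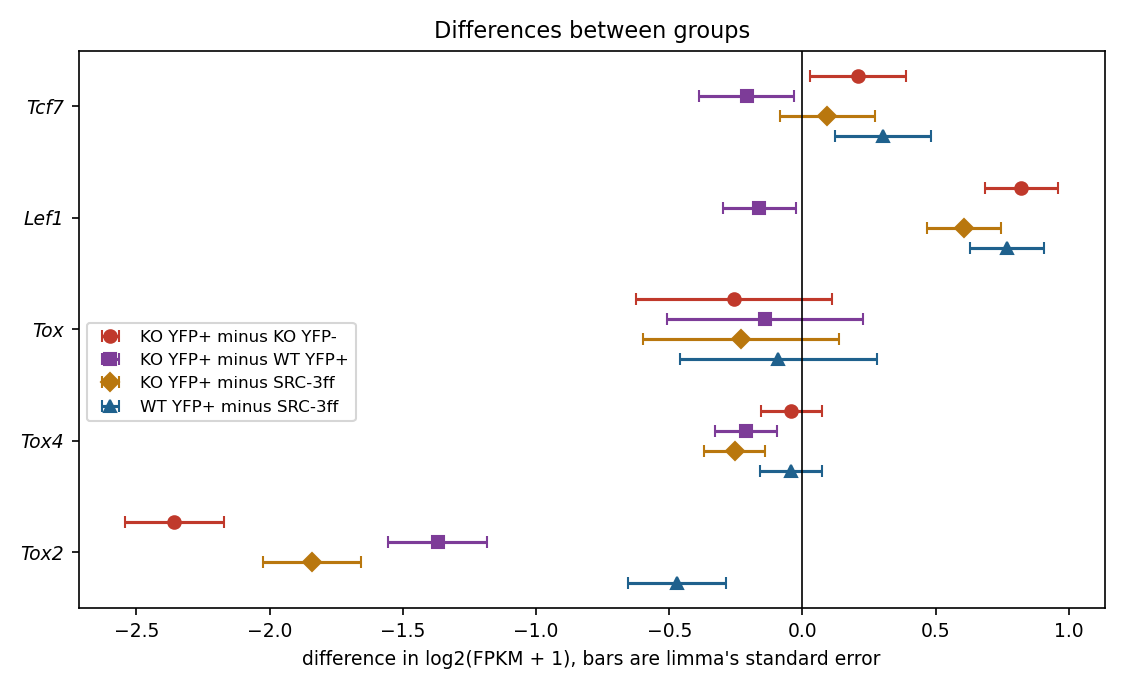
Difference in log2(FPKM + 1) between pairs of groups for the 5 genes that reached the filter, with limma's standard error as bars. Tox2 in KO YFP+ lies at -2.36, -1.37 and -1.84 from KO YFP-, WT YFP+ and SRC-3ff, while Tox and Tox4 lie within 0.26 of 0 in all 4 comparisons.

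Tox (ENSMUSG00000041272, chr4:6686353-6991557, minus strand), the founding member of its family, measured 23.9 and 12.5 FPKM in KO YFP+, against 18.2 and 23.9 in KO YFP-. The controls held 14.8 and 24.8 FPKM (WT YFP+) and 25.3 and 16.5 FPKM (SRC-3ff). All groups overlapped, and in KO YFP+ 1 library held about the level of the highest libraries and the other the lowest of the 8. The means (± SD, n = 2 each) were 18.2 ± 8.09 FPKM in KO YFP+, 21.1 ± 4.07 in KO YFP-, 19.8 ± 7.08 in WT YFP+ and 20.9 ± 6.26 in SRC-3ff. The log2 differences of KO YFP+ were -0.26 ± 0.37 from KO YFP-, -0.14 ± 0.37 from WT YFP+ and -0.23 ± 0.37 from SRC-3ff, and WT YFP+ differed from SRC-3ff by -0.09 ± 0.37. Leaving out 1 library turned the sign in each of these 4 comparisons, and without KO YFP+ 84 or 85 the difference from WT YFP+ lay between -0.58 and 0.30.

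Tox4 (ENSMUSG00000016831, chr14:52279146-52296401, plus strand), a subunit of a nuclear protein phosphatase complex found in most cells, varied least among the 5. It measured 20.96 and 19.4 FPKM in KO YFP+, 22.46 and 19.2 in KO YFP-, 22.54 and 24.5 in WT YFP+ and 25.1 and 23.5 in SRC-3ff. KO YFP+ and KO YFP-, the latter named by its label and intermediate in Ncoa3, lay below both controls without overlap. The nearest libraries were KO YFP- 84 at 22.46 FPKM and WT YFP+ 23 at 22.54. The means (± SD, n = 2 each) were 20.2 ± 1.10 FPKM in KO YFP+ and 20.8 ± 2.29 in KO YFP-, against 23.5 ± 1.39 in WT YFP+ and 24.3 ± 1.11 in SRC-3ff. The difference of KO YFP+ was -0.04 ± 0.12 from KO YFP-, -0.21 ± 0.12 from WT YFP+ and -0.25 ± 0.12 from SRC-3ff. WT YFP+ differed from SRC-3ff by -0.04 ± 0.12.

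Tox3 (ENSMUSG00000043668, chr8:90247040-90348343, minus strand), known from neurons and mammary epithelium, was listed at 0 in both KO YFP+ libraries, in both KO YFP- libraries, in WT YFP+ 24 and in SRC-3ff 72. It was listed at 0.0398 FPKM in WT YFP+ 23 and at 0.0102 in SRC-3ff 68. It entered no comparison.

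Counted over the 6 genes, KO YFP+ against KO YFP- had 1 higher (Lef1) and 1 lower (Tox2) without overlap, where 49.0% of the 14134 tested genes did not overlap in either direction. For KO YFP+ against WT YFP+ the counts were 0 higher and 2 lower (Tox2 and Tox4), with 40.0% of tested genes not overlapping. In KO YFP+ against SRC-3ff they were 1 higher and 2 lower, with 61.0% not overlapping, and in WT YFP+ against SRC-3ff they were 2 higher and 1 lower, with 57.2%. With 2 libraries a group such separation is common over all genes, and nothing is read from these counts. KO YFP+ enters 3 of these comparisons and SRC-3ff enters 2, so the comparisons share libraries.

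The upstream sequences of Tox2 and Lef1 are shown because these were the members whose groups lay farthest apart. RefSeq (GRCm38.p6) lists several start sites for each, and a gene-level FPKM cannot tell which were used. Of the 5 starts listed for Tox2 and the 4 for Lef1, the outermost of each gene and the first with a TCF/LEF match (the fourth of each) are printed 5′ to 3′ on the gene's strand, as the bases before the start and no further than the first base of an annotated transcript. Each was searched on both strands for the TCF/LEF core CTTTG followed by A or T and then by A or T again (4 sequences), with capitals marking a match, and for AGGTCA, the half-site of nuclear receptors.
Tox2 first start, chr2:163202877-163203124: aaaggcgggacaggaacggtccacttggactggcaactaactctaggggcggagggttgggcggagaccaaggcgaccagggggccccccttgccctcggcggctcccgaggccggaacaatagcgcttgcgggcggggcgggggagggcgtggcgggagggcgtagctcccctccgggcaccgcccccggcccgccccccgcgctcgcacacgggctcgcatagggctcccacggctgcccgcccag
Tox2 downstream start, chr2:163225203-163225362: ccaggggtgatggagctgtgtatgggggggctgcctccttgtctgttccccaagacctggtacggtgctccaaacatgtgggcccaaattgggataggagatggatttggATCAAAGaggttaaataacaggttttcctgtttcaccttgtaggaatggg
Lef1 first start, chr3:131110047-131110296: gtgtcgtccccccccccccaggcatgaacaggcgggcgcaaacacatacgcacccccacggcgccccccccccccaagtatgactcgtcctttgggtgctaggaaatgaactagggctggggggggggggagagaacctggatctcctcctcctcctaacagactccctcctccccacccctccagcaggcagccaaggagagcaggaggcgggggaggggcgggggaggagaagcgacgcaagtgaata
Lef1 downstream start, chr3:131156044-131156293: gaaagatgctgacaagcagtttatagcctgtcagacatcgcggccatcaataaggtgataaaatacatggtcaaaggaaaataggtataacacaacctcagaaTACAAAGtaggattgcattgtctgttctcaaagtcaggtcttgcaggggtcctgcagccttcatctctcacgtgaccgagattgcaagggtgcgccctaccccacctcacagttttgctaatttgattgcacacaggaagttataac

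The bases searched before the first 3 starts of each gene, of which starts 2 and 3 are not printed, held no match to the TCF/LEF sequences or to AGGTCA. The printed downstream start of Tox2 held ATCAAAG, which is CTTTGAT on the other strand, 134 bases before the start at 163225453, and the fifth start, 1 base further on, held the same match. The printed downstream start of Lef1 held TACAAAG, which is CTTTGTA on the other strand, 141 bases before its start. AGGTCA was in none of the stretches searched. Those of Tox2 starts 2, 4 and 5 held 92, 160 and 159 bases, and the bases next to these starts were not searched. A TCF/LEF match was present in 14.8% of all 32851 RefSeq mouse promoter windows of 248 or 250 bases and in 10.3% of windows of 160 bases. AGGTCA was present in 13.9% of windows of 248 bases and 9.07% of 160. These matches describe letters in a window and are no measure of binding.

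Tox2 lies on the same chromosome as Ncoa3, the deleted gene (chr2:165992636-166073242), with 2.67 Mb between the end of one and the start of the other. The knockout is on a mixed background and WT YFP+ on C57BL/6, so an effect of the deletion and of strain-derived sequence near Ncoa3 on Tox2 cannot be told apart. Between them lie 110 genes, of which 37 were tested. In KO YFP+ against WT YFP+, 1 of the 37 was higher and 2 were lower (limma, Benjamini-Hochberg adjusted p under 0.05), beside 0.304% higher and 0.453% lower of all tested genes, with 5 at an unadjusted p under 0.05 and a median log2 difference of -0.03. Serinc3, a membrane protein gene, measured 47.2 and 49.0 FPKM in KO YFP+, against 120 and 136 in WT YFP+ (log2 difference -1.39 ± 0.10, limma adjusted p = 0.0022, and up to 0.031 with 1 library left out). The other groups held 51.9 and 49.3 FPKM (KO YFP-) and 65.5 and 73.5 FPKM (SRC-3ff), so it was highest in the C57BL/6 group. Ada, encoding adenosine deaminase, was higher at 16.2 and 12.4 FPKM in KO YFP+, against 5.43 and 5.64 in WT YFP+ (1.21 ± 0.17, limma adjusted p = 0.032, and up to 0.16 with 1 library left out). Sdc4, the gene of the proteoglycan syndecan 4, was lower at 1.27 and 2.03 FPKM in KO YFP+, against 4.83 and 5.96 in WT YFP+ (-1.28 ± 0.19, limma adjusted p = 0.045, and up to 0.21). All 3 calls were lost when the fit held only the 4 libraries of these groups. In KO YFP+ against KO YFP-, 0 of the 37 were higher and 5 lower, beside 1.44% and 3.46% of all tested genes (median -0.06). None of these 5 calls remained when low genes were kept in the fit. Against SRC-3ff, KO YFP+ had 0 higher and 8 lower, beside 4.15% and 6.09% (median -0.13). Each of these 8 calls dropped out in that fit or in the fit of only the 4 libraries. In WT YFP+ against SRC-3ff 1 was higher and 2 lower, beside 3.73% and 5.49% (median -0.12).

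**Figure D3:**
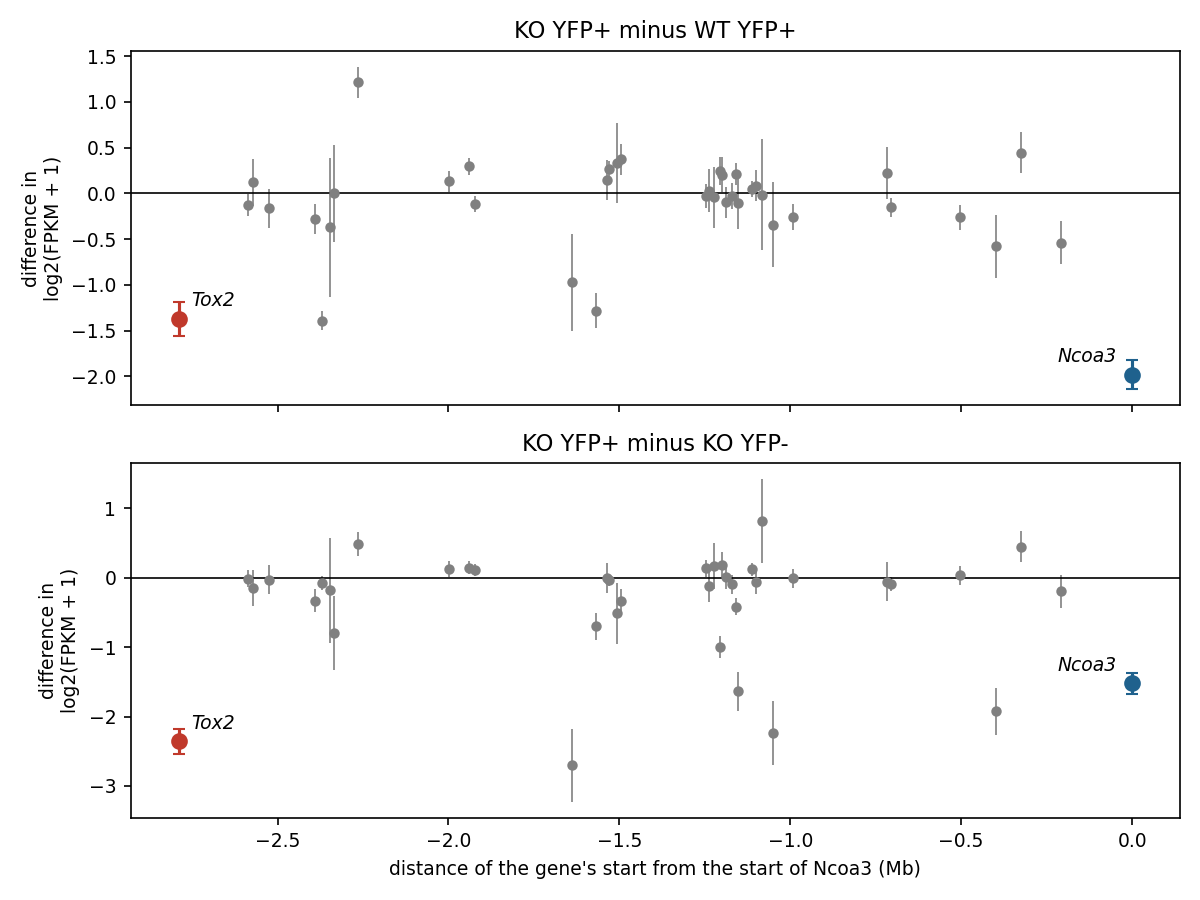
Difference in log2(FPKM + 1), with limma's standard error, of Tox2, Ncoa3 and the 37 tested genes between them, by the distance of each gene's start from the start of Ncoa3 in Mb. Upper panel, KO YFP+ minus WT YFP+, and lower panel, KO YFP+ minus KO YFP-. The genes between scatter around 0, with medians of -0.03 and -0.06.

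The genes whose levels followed each member most closely over the 8 libraries were taken from 6920 genes. Likeness was measured as the root-mean-square difference between 2 profiles of log2(FPKM + 1), each centred on its own mean, and is given as a description over libraries that share groups. For Tox2, whose profile spanned 2.51 log2 units, the closest were Tcea1 at 0.36, Cebpb at 0.37 and Zmiz1 at 0.38, against a median of 0.89 over all genes compared. Tcea1, a transcription elongation factor, measured 3.89 and 4.06 FPKM in KO YFP+ and 14.1 to 17.6 in the 6 other libraries. Cebpb, a leucine zipper factor, measured 7.21 and 6.71 FPKM in KO YFP+ and 12.1 to 24.2 elsewhere, and Zmiz1 measured 2.00 and 0.929 in KO YFP+ and 9.70 to 12.6 elsewhere. All 3 were low in both KO YFP+ libraries, like Tox2, which follows from their choice by likeness. The scale understates differences of low genes such as Tox2, and only genes with a mean of at least 5 FPKM were candidates. Ncoa3 itself stood at rank 31 for Tox2, with a difference of 0.55.

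For Lef1, which spanned 0.999 log2 units, the closest profiles were Dgka and Bach2, both at 0.08, and Pecam1 at 0.09, against a median of 0.47. Dgka encodes a diacylglycerol kinase that dampens T cell receptor signals. It measured 182 and 174 FPKM in KO YFP+, 107 and 101 in KO YFP-, 205 and 200 in WT YFP+ and 130 and 99.2 in SRC-3ff. Bach2, a repressor of effector genes in T cells, measured 9.30 and 8.53 FPKM in KO YFP+, 4.35 and 4.47 in KO YFP-, 10.1 and 10.7 in WT YFP+ and 7.14 and 5.11 in SRC-3ff. Like Lef1, both were higher in each YFP+ library than in each library of KO YFP- and SRC-3ff. That likeness follows from their choice as closest profiles.

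For Tcf7 the closest were Cd4 at 0.07, Atpif1 at 0.08 and Tbc1d14 at 0.09, against a median of 0.28. Cd4, the coreceptor of helper and regulatory T cells, measured 186 and 162 FPKM in KO YFP+, 169 and 140 in KO YFP-, 178 and 212 in WT YFP+ and 168 and 144 in SRC-3ff, with the same higher and lower library in each group as Tcf7. For Tox the closest was Arid4b at 0.13, then Acy1 at 0.21 and Trappc9 at 0.22, against a median of 0.40. For Tox4 they were Cmip, Xrn2 and Ythdf2, all at 0.05, against a median of 0.22.

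**Figure D4:**
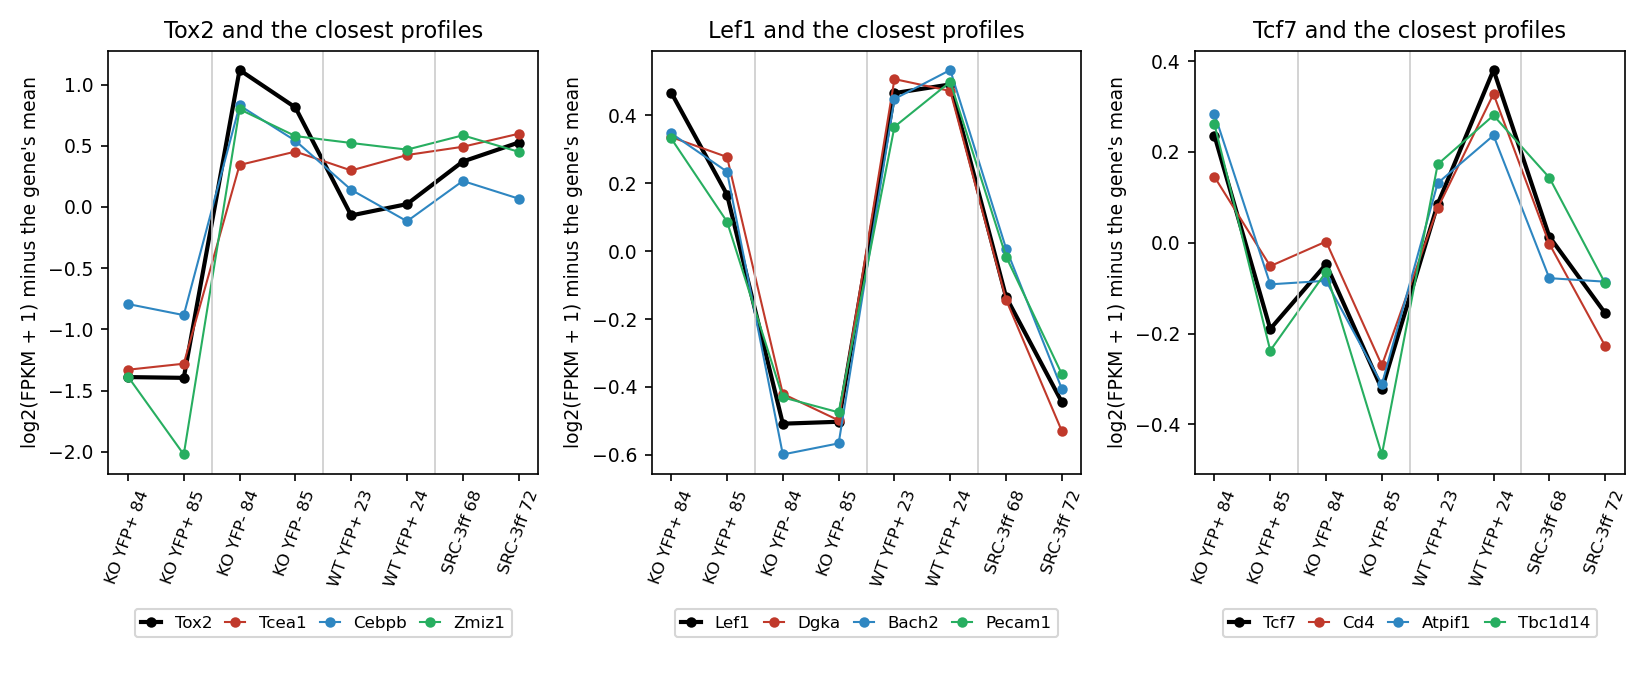
Profiles over the 8 libraries of Tox2, Lef1 and Tcf7 (black) and of the 3 genes closest to each (colours), as log2(FPKM + 1) minus each gene's own mean. Tox2, Tcea1, Cebpb and Zmiz1 are lowest in the 2 KO YFP+ libraries, and Lef1, Dgka, Bach2 and Pecam1 are higher in KO YFP+ and WT YFP+ than in KO YFP-.

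Genes around these factors were then counted in 9 lists (the TCF/LEF and Wnt pathway, genes high in TCF1-high T cells, effector, exhaustion and follicular helper genes, the complex of Tox4, and other HMG-box genes). The lists hold no member, and 132 of their 184 genes in the table were tested. The lists were chosen with earlier results of these data known. Their called shares beside those of all genes are therefore a description and no test of the lists, here and in the paragraphs on single lists below. In KO YFP+ against KO YFP-, 8 of the 132 were higher and 23 lower (limma adjusted p under 0.05), beside 1.44% higher and 3.46% lower of all tested genes, and the median difference was -0.16 against -0.02 over all genes. In KO YFP+ against WT YFP+, limma called 0 of the 132 in either direction, beside 0.304% higher and 0.453% lower of all genes, and 15 of the 132 had an unadjusted p under 0.05. The median there was -0.06 against 0.01. In KO YFP+ against SRC-3ff, 7 were higher and 22 lower, beside 4.15% and 6.09% of all genes (median -0.17 against -0.02). In WT YFP+ against SRC-3ff, 10 were higher and 22 lower, beside 3.73% and 5.49% (median -0.11 against -0.03). Calls were made in the comparisons that set a YFP+ group against KO YFP- or SRC-3ff, where the summed NK, gamma delta, plasma and B cell markers also differed, and the part of such cells in the counts was not tested. With each library left out in turn, 11 of the 31 calls held against KO YFP-, 10 of the 29 against SRC-3ff, and 13 of the 32 in WT YFP+ against SRC-3ff.

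Of the 22 genes known to be high in TCF1-high T cells, 7 rose and 2 fell in KO YFP+ against KO YFP-, with a median log2 difference of 0.41. Ccr7, the receptor that guides naive T cells into lymph nodes, measured 392.4 and 392.2 FPKM in KO YFP+, against 135 and 125 in KO YFP- (1.58 ± 0.14, limma adjusted p = 0.0038). Klf2, a factor that maintains quiescence, measured 221 and 234 FPKM in KO YFP+, against 136 and 137 in KO YFP- (0.74 ± 0.08, limma adjusted p = 0.0054). Both remained called whichever library was left out. Foxp1, S1pr1, Actn1 and Bach2 rose too, and their adjusted p reached 0.057, 0.057, 0.067 and 0.15 with 1 library left out. Ccr9, a gut homing receptor, fell to 0.553 and 0.259 FPKM in KO YFP+, against 7.98 and 13.0 in KO YFP-, a call that held with each library left out. Il7r, the receptor of interleukin 7, fell too (limma adjusted p = 0.017, and up to 0.095 with 1 library left out).

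Against SRC-3ff, 5 of these 22 genes rose and 2 fell in KO YFP+ (median 0.19). Against WT YFP+ limma called 0 of the 22, with 6 at an unadjusted p under 0.05 and a median of -0.16. Foxp1, which keeps T cells quiescent, measured 69.99 and 76.99 FPKM in KO YFP+, against 16.8 and 23.0 in SRC-3ff (1.85 ± 0.15, limma adjusted p = 0.0021). Id3, a brake on E proteins, measured 129 and 125 FPKM in KO YFP+, against 65.0 and 56.1 in SRC-3ff (1.06 ± 0.16, limma adjusted p = 0.015, and up to 0.099 with 1 library left out). In WT YFP+ against SRC-3ff 6 rose and 2 fell (median 0.45), among them Foxp1 at 78.2 and 81.6 FPKM in WT YFP+ (1.97 ± 0.15, limma adjusted p = 0.00093). Igfbp4 measured 32.2 and 23.3 FPKM in WT YFP+, against 6.63 and 6.90 in SRC-3ff (1.87 ± 0.19, limma adjusted p = 0.0025).

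Effector transcription factors were lower in the same comparisons. Of 18 measured, 0 rose and 9 fell in KO YFP+ against KO YFP- (median -1.12), 0 rose and 12 fell against SRC-3ff (median -1.11), and 0 rose and 11 fell in WT YFP+ against SRC-3ff (median -1.11). Against WT YFP+ limma called 0, with 1 at an unadjusted p under 0.05 and a median of 0.05. Runx3, a factor of cytotoxic T cells, measured 11.8 and 11.02 FPKM in KO YFP+, against 30.5 and 30.2 in KO YFP- (-1.34 ± 0.11, limma adjusted p = 0.0035). Tbx21, the T helper 1 factor T-bet, measured 5.10 and 4.39 FPKM in KO YFP+, against 42.0 and 76.3 in KO YFP- (-3.33 ± 0.32, limma adjusted p = 0.0043). Rora, a nuclear receptor of innate-like and helper lymphocytes, measured 9.86 and 10.02 FPKM in KO YFP+, against 42.3 and 45.9 in KO YFP- (-2.04 ± 0.17, limma adjusted p = 0.0035). These 3 held with each library left out, and Id2 fell with an adjusted p of 0.0078 that reached 0.061 with 1 library left out. Batf3 was listed at 0 in both KO YFP+ libraries and at 3.23 and 3.73 FPKM in SRC-3ff. Several of these factors are also expressed in NK and innate-like T cells, whose markers were lower in the same groups. Against WT YFP+, Batf, an AP-1 factor of effector Tregs, measured 74.8 and 76.3 FPKM in KO YFP+, against 58.5 and 46.1 in WT YFP+ (0.53 ± 0.17, limma adjusted p = 0.36).

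**Figure D5:**
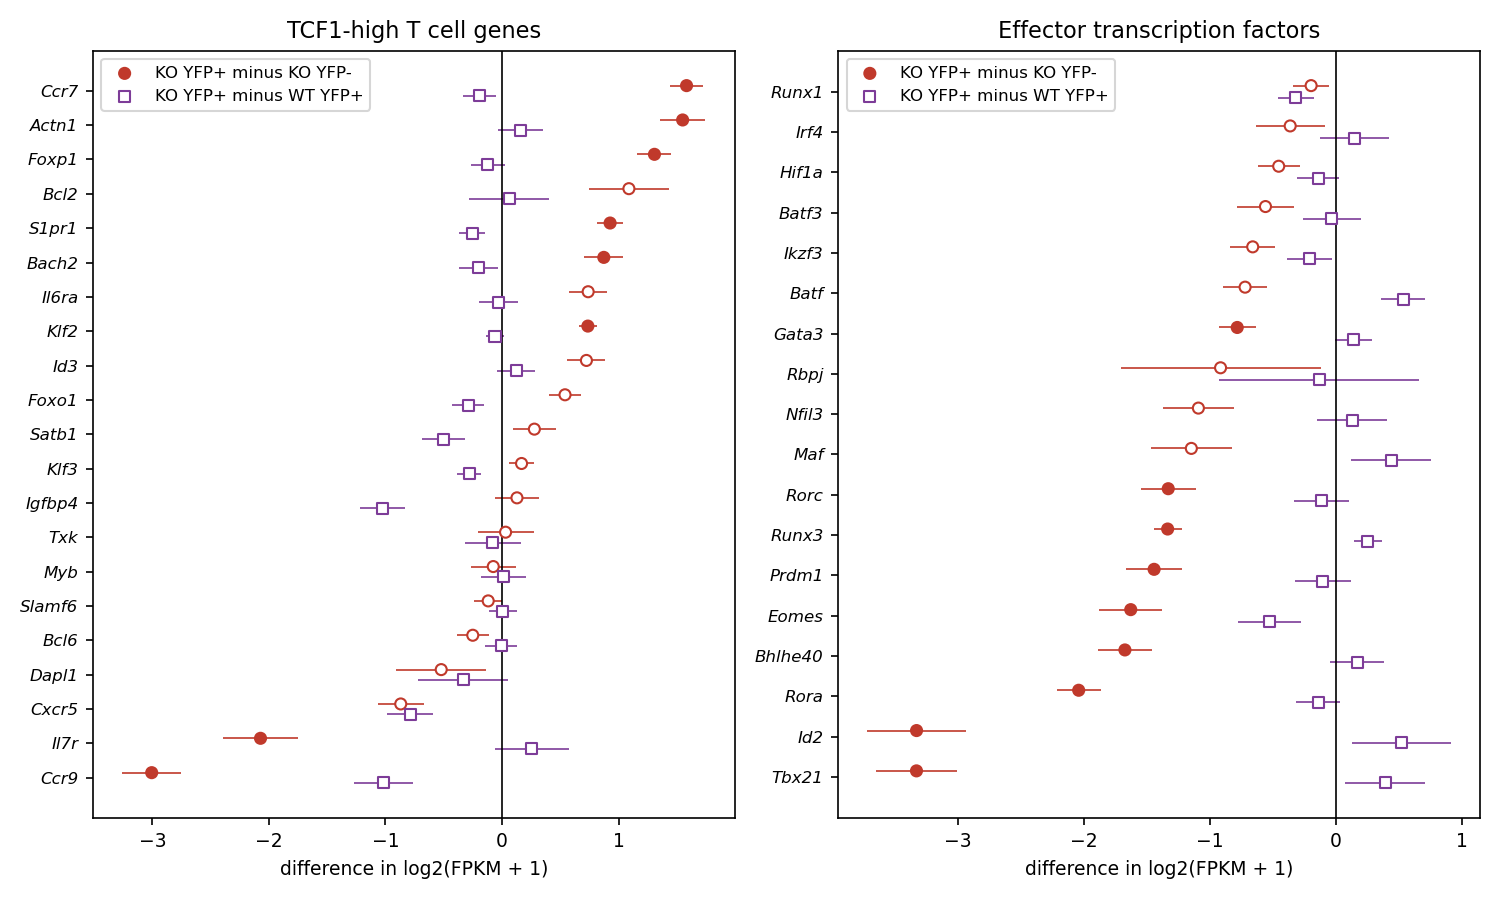
Difference in log2(FPKM + 1), with limma's standard error, of 21 of the 22 TCF1-high T cell genes (left) and the 18 effector transcription factors (right). Circles show KO YFP+ minus KO YFP- and squares KO YFP+ minus WT YFP+, filled where the adjusted p was under 0.05. In KO YFP+ minus KO YFP-, 2 genes of the left panel and 9 of the right panel fell, and Ccr7, Actn1, Foxp1, S1pr1, Bach2 and Klf2 of the left panel rose, while no square is filled.

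Among 18 TOX-associated exhaustion genes, 0 rose and 5 fell in KO YFP+ against KO YFP- (median -0.67), 2 fell against SRC-3ff (median -0.35), and 3 fell in WT YFP+ against SRC-3ff (median -0.29). Against WT YFP+ limma called 0, with 2 at an unadjusted p under 0.05 and a median of 0.00. Cxcr6, a chemokine receptor of tissue-resident and innate-like T cells, measured 4.27 and 6.34 FPKM in KO YFP+, against 253 and 457 in KO YFP- (-5.78 ± 0.37, limma adjusted p = 0.0024, held with each library left out). Cd160, a receptor of NK and T cells, measured 8.09 and 6.45 FPKM in KO YFP+, against 40.7 and 71.0 in KO YFP- (-2.73 ± 0.25, limma adjusted p = 0.0038, also held). Pdcd1, the inhibitory receptor PD-1, measured 50.4 and 37.7 FPKM in KO YFP+, against 37.6 and 37.1 in WT YFP+ (0.22 ± 0.19, limma adjusted p = 0.74). The list's Tigit fell in WT YFP+ to 8.75 and 5.501 FPKM, against 26.01 and 26.996 in SRC-3ff (limma adjusted p = 0.031, and up to 0.15 with 1 library left out).

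Among 18 follicular helper genes, the setting in which Tox2 is best known, 0 rose and 5 fell in KO YFP+ against KO YFP- (median -0.83). Against WT YFP+ limma called 0, with 3 at an unadjusted p under 0.05 and a median of 0.02. Il4 was listed at 0.0645 and 0 FPKM in KO YFP+ and measured 9.32 and 12.7 in KO YFP- (limma adjusted p = 0.0024). Il21, the main follicular helper cytokine, measured 0.112 and 0.0327 FPKM in KO YFP+, against 2.29 and 2.24 in KO YFP- (limma adjusted p = 0.017, and up to 0.11 with 1 library left out). Icos, a costimulatory receptor, measured 30.0 and 30.8 FPKM in KO YFP+, against 84.1 and 66.7 in KO YFP- (-1.27 ± 0.20, limma adjusted p = 0.018, and up to 0.11). Against SRC-3ff, 1 rose (Gpm6b, limma adjusted p = 0.030, and up to 0.17 with 1 library left out) and 2 fell. In WT YFP+ against SRC-3ff 1 rose (Il6st, limma adjusted p = 0.035, and up to 0.19) and 4 fell.

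Of 16 relatives and cofactors of TCF-1 and LEF-1, 0 passed in KO YFP+ against KO YFP- with limma, where 2 had an unadjusted p under 0.05, and 0 passed against WT YFP+, where 0 had one. Against SRC-3ff, 1 of the 16 was higher in KO YFP+ and 3 in WT YFP+, and 0 were lower in either. Hdac1, a deacetylase of the corepressor complexes, was higher against SRC-3ff, at 54.2 and 58.6 FPKM in KO YFP+, against 23.7 and 24.8 in SRC-3ff (1.18 ± 0.12, limma adjusted p = 0.0040). It was also higher at 55.9 and 59.7 FPKM in WT YFP+ (1.22 ± 0.12 from SRC-3ff, limma adjusted p = 0.0020), and both calls held with each library left out. Tle5 and Tle1, relatives of the Groucho corepressors, rose in WT YFP+ against SRC-3ff, with adjusted p of 0.031 and 0.044 that reached 0.185 and 0.224 with 1 library left out.

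Of 18 genes of Wnt receptors and the beta-catenin destruction complex, 0 passed in KO YFP+ against KO YFP- and against WT YFP+ with limma, with 2 at an unadjusted p under 0.05 in each. Against SRC-3ff, Wls, which carries Wnt proteins to the cell surface, fell to 43.1 and 46.97 FPKM in KO YFP+, against 134 and 168 in SRC-3ff (-1.71 ± 0.37, limma adjusted p = 0.035, and up to 0.18 with 1 library left out). Ryk, a receptor for Wnt proteins, fell to 0.0903 and 0.153 FPKM in KO YFP+, against 1.35 and 3.32 in SRC-3ff (limma adjusted p = 0.0497), a call lost with quantile normalization, with the block by library number, with no filter, with only the 4 libraries compared and with 1 library left out (adjusted p up to 0.24). Of 6 measured Wnt target genes, Myc rose and Cd44 fell in KO YFP+ against KO YFP-. Myc measured 79.9 and 73.2 FPKM in KO YFP+, against 55.2 and 42.6 in KO YFP- (0.65 ± 0.13, limma adjusted p = 0.040, and up to 0.18 with 1 library left out). Cd44, a marker of activated T cells, measured 19.8 and 16.9 FPKM in KO YFP+, against 45.7 and 58.7 in KO YFP- (-1.45 ± 0.22, limma adjusted p = 0.016, and up to 0.11).

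The 5 genes of the phosphatase complex that holds Tox4 had 0 calls by limma in each of the 4 comparisons, where 1, 0, 1 and 1 of them had an unadjusted p under 0.05. Its catalytic subunit Ppp1ca measured 512 and 548 FPKM in KO YFP+, against 544 and 523 in KO YFP-. Among 17 other HMG-box genes, Sox13 fell in KO YFP+ against KO YFP-, to 0.0846 and 0.192 FPKM, against 10.6 and 13.7 (limma adjusted p = 0.0052, held with each library left out). Sox13 is also a marker of gamma delta T cells, whose other markers were lower in KO YFP+ too. It was likewise the 1 called gene of this list in KO YFP+ and in WT YFP+ against SRC-3ff, and no gene of the list passed against WT YFP+, where 1 had an unadjusted p under 0.05.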

How the data were processed

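RNA of splenic Tregs was made into libraries with the SMART-Seq v4 kit, per the labels. The authors deposited FPKM per gene for 8 libraries, used here as deposited. The submitters' processing notes name Trim Galore, STAR and StringTie with mm10 (GRCm38). For tool versions, annotation and strand setting, nothing is given in the sources used here. Since FPKM are not counts, no depth or counting interval is given. Of the gene identifiers, 55227 matched GENCODE M21, which gave positions, and 260 did not.

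The 14134 genes that reached 1 FPKM in 2 or more libraries entered limma 3.58.1 in R 4.3.3 (lmFit, eBayes with a trend) on log2(FPKM + 1). The model had 4 groups of 2 libraries and 4 residual degrees of freedom. P-values were adjusted over all 14134 genes within each of 4 comparisons (Benjamini-Hochberg, threshold 0.05), and errors of log2 differences are limma's standard errors. The script was tested on simulated data. With 2 libraries a side, the smallest two-sided p of an exact permutation test is 0.333. The labels do not state separate animals for all libraries, so p-values measure the spread between libraries, which may be technical. Tables and plots used Python 3.11.15, pandas 2.3.3 and matplotlib 3.10.9.

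The members and the lists were chosen with earlier results of these data known. Named genes were, per list and comparison, up to 4 with the smallest p among those past the threshold, otherwise the 2 most abundant, plus the 3 closest profiles of each member (mean of at least 5 FPKM, no predicted genes, clones, pseudogenes or receptor segments) and 3 genes between Tox2 and Ncoa3. Values are printed for only part of the genes this rule names, and those of 2 genes are not reported here. Actn1, Bach2, S1pr1, Foxp1, Il7r and Id2 in comparisons where the rule did not name them were chosen after their values were seen. Alternatives were a pseudocount of 0.1, no filter, a filter at 5 FPKM, scaling by median of ratios, quantile normalization, a block by library number, only the 4 libraries compared, and leaving out each library. The numbers 84 and 85 occur in both KO sorts, but the labels do not state what they mark.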

Additional observations from a re-analysis of the deposited data

How the results depend on the processing

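Tox2 and Lef1 kept their direction in each comparison under every alternative that gave a value, 14 for Tox2, which the minimum of 5 FPKM removes, and 15 for Lef1. Many of these alternatives could not turn a sign. The filters, the block, the fit of only the 4 libraries and leaving out a library of another group return the main difference. Where 2 groups do not overlap, leaving out 1 library keeps the sign as well. The kept direction is therefore no added evidence. Tox2 in KO YFP+ ranged from -4.89 to -2.13 against KO YFP-, from -3.59 to -1.32 against WT YFP+ and from -4.25 to -1.65 against SRC-3ff, with the lowest values from the pseudocount of 0.1, which spreads low values by construction. Tox changed sign in 1 or 2 alternatives in each of the 4 comparisons, Tcf7 in 1, 1 and 2 against KO YFP-, WT YFP+ and SRC-3ff, and Tox4 in 3 against KO YFP- and in 3 of WT YFP+ against SRC-3ff. Without a filter, pathway genes called fell to 13 in KO YFP+ against KO YFP-, 13 in KO YFP+ against SRC-3ff and 15 in WT YFP+ against SRC-3ff, from 31, 29 and 32; the trend and the adjustment then cover many more genes at 0. With 1 library left out, the counts ranged from 12 to 32, from 11 to 29 and from 15 to 30, and from 0 to 0 against WT YFP+. Against KO YFP- the count was 13 or 12 when KO YFP+ 84 or 85 was left out, and 20 or 17 when KO YFP- 84 or 85 was. Against SRC-3ff it was 12 or 11 when KO YFP+ 84 or 85 was left out, and 12 when SRC-3ff 72 was. In WT YFP+ against SRC-3ff it was 19 without WT YFP+ 23, 16 without WT YFP+ 24 and 15 without SRC-3ff 72. A lone library is then assumed to vary like the other groups.

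With the library number as a block the counts were 33 against KO YFP-, 0 against WT YFP+, 27 against SRC-3ff and 29 in WT YFP+ against SRC-3ff. The same-numbered KO libraries deviated together only weakly across 14134 genes (Pearson r = 0.137 over 2 pairs, in which genes are not independent), so the pairing is not taken as given. With quantile normalization, calls over all genes in WT YFP+ against SRC-3ff were 705 higher and 648 lower (52.1% higher), against 527 and 776 (40.4% higher) as deposited. Unknown depth and 2 libraries a group limit what can be said of genes near 0, such as Tox2 in KO YFP+ and Tox3.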
